A study of Mus musculus with 9 samples.

Results

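The 10 genes described here encode the D-type cyclins (Ccnd1, Ccnd2 and Ccnd3), the kinases they activate (Cdk4 and Cdk6), inhibitors of these kinases (Cdkn1b, Cdkn2a, Cdkn2b and Cdkn2c) and their substrate, the retinoblastoma protein (Rb1). They were chosen by gene symbol, with earlier results of these data known, and each was found once among the 24346 genes of the deposited table. D cyclins are made in response to growth signals and switch on CDK4 and CDK6, which phosphorylate the retinoblastoma protein and so release E2F transcription factors that turn on genes of DNA replication. INK4 proteins bind CDK4 and CDK6 directly and block them, and p27, the product of Cdkn1b, inhibits cyclin-CDK complexes of several kinds. In mammary epithelium cyclin D1 is needed for tumours driven by the neu oncogene, and loss of INK4 genes is frequent in cultured mouse tumour cells.

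RNA sequencing covered 9 libraries of cell lines grown from mammary tumours of FVB/N mice with MMTV-neu, a transgene that places the neu (Erbb2) oncogene under the promoter of the mouse mammary tumour virus. Of these, 4 libraries were labelled Jak1 knockout (45555, 47298, 45566B and 46295) and 5 Jak1 wild type (45555, 47298, 45566B, 33373 and 33377). Lines 45555, 47298 and 45566B were present in both states, named Cre and Wt in their titles, and were grown with puromycin, while 46295, 33373 and 33377 were present in 1 state and their labels name no puromycin. All were grown attached in serum medium with insulin, epidermal growth factor and hydrocortisone. The labels give neither the ages of the mice nor whether a line is 1 clone, nor how Cre was delivered. Each line and state is 1 library, so a p-value measures the spread between lines or between these libraries, and the labels name no separate cultures.

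Values are FPKM, fragments scaled to transcript length and to library size, which allow levels of different genes to be set side by side. How library size was set is not stated, and the relative depths given next depend on it. The absolute depth is unknown, and the other 8 libraries had 0.416 to 0.766 times the depth of 45566B wild type, as read from the spacing of low values. The columns of 33373 and 33377 are named in another form than the other 7, and whether they were scaled with them is not stated. Jak1 itself was at 74.4 and 86.7 FPKM in 45555 knockout and wild type, at 27.5 and 63.1 in 47298 and at 14.2 and 16.1 in 45566B, so its transcript remained in the libraries labelled knockout. It was at 22.97 FPKM in 46295 knockout and at 19.4 and 54.6 in 33373 and 33377, so knockout and wild-type libraries overlapped, and a single FPKM for the gene does not show which part was deleted. The lines did not look alike as mammary cells. The summed level of 10 luminal epithelial markers was 3154 and 3141 FPKM in 45566B knockout and wild type, 3164 in 46295 and 2625 in 33373, against 163 in 33377, 415 and 100.1 in 47298 knockout and wild type, and 7.495 and 7.18 in 45555. In 47298 and 33377 most of this sum was Krt8 and Krt18. They were at 157 and 250 FPKM in 47298 knockout, 38.5 and 52.7 in 47298 wild type, and 74.9 and 74.8 in 33377. In 47298 knockout and wild type, 3 and 4 of the 10 markers reached 1 FPKM. Epcam, an epithelial adhesion molecule, was below 1 FPKM in all 4 libraries of 45555 and 47298. The summed level of 12 fibroblast markers was 8373 and 10004 FPKM in 45555 knockout and wild type and 2686 and 9950 in 47298, against 169 and 85.0 in 45566B, 129 in 46295, 1676 in 33373 and 7766 in 33377. Immune cells are marked by Ptprc, which did not exceed 0.0293 FPKM in any library. Cd68, a lysosomal protein of macrophages and 1 of 6 immune markers, was at 106 FPKM in 46295 and between 0.426 and 17.7 elsewhere. In bulk RNA, fewer cells of a kind and less RNA per cell cannot be told apart.

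**Figure D1:**
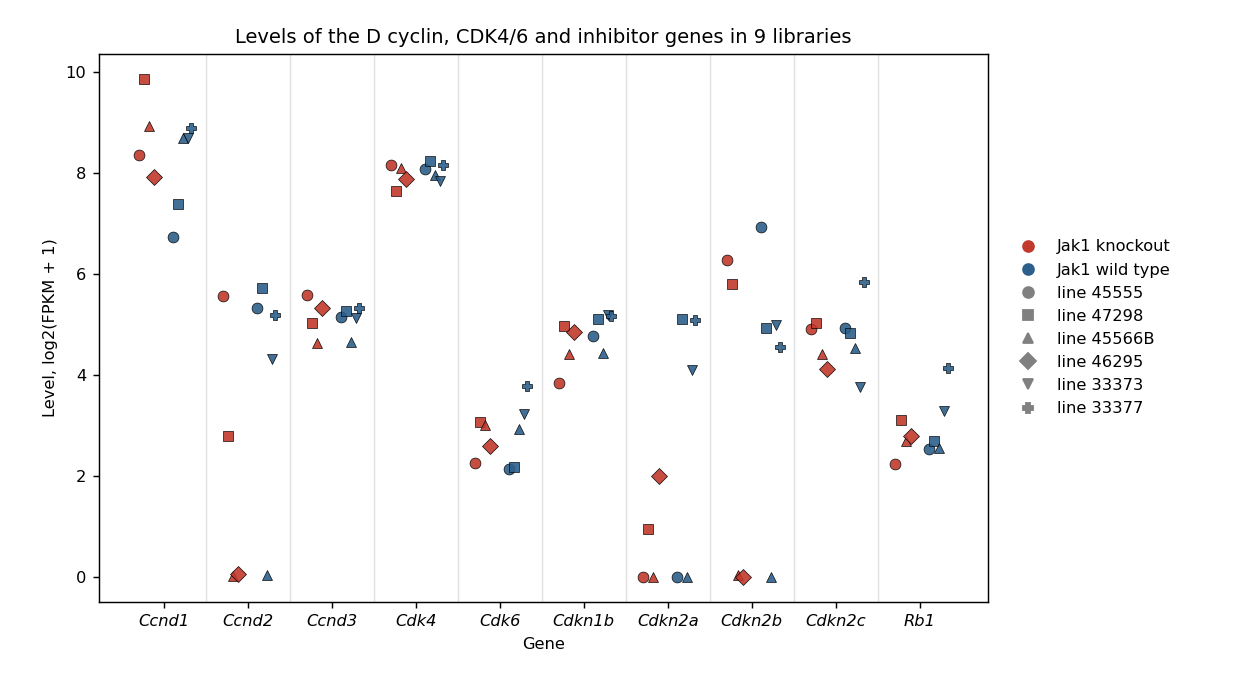
Levels of the 10 genes on the log2(FPKM + 1) scale in each library, with Jak1 knockout libraries in red on the left of each gene and Jak1 wild-type libraries in blue on the right, and a marker shape for each line. Cdk4 is tightly grouped between 200.04 and 301 FPKM, while Ccnd2, Cdkn2a and Cdkn2b each have libraries at or near 0.

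Among the D cyclins, Ccnd1 was the most abundant in every library and was higher in the knockout library of each pair, although this did not pass the test over all genes. Cyclin D1 was at 329 FPKM in 45555 knockout, against 105 in 45555 wild type. It was at 933 FPKM in 47298 knockout, against 166 in 47298 wild type. In 45566B it was at 485 FPKM in the knockout, against 411 in the wild-type library. The knockout library was thus the higher one in each of the 3 lines, by 3.13-fold, 5.62-fold and 1.18-fold in turn, and the size of the difference varied widely among them. With these values Ccnd1 ranked 78th by FPKM in 47298 knockout and 519th in 47298 wild type, and 289th and 919th in 45555 knockout and wild type.

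Over the 3 lines the Ccnd1 log2 fold change was 1.45 ± 0.49 (SE), with a 95% interval of 0.12 to 2.78, on the log2(FPKM + 1) scale with line as a block. Its unadjusted p was 0.0386, and it did not pass over all genes (limma, adjusted p = 0.762). In this comparison 0 of 12063 genes passed and 406 had an unadjusted p under 0.05 (limma, the one tool run), and 1.51% had such a p with a higher level in knockout. Of the 10 genes Ccnd1 alone was among them. Ccnd1 and Cdk6 were higher in the knockout library of all 3 lines, a pattern that 14.3% of tested genes showed, and Cdkn1b was lower in all 3, as were 13.3% of tested genes. The value rests unequally on the lines: the Ccnd1 log2 fold change was 2.06 without 45566B, 1.36 without 45555 and 0.94 without 47298. Genes with a level in knockout at least 2-fold above wild type on the FPKM + 1 scale made up 3.2% of tested genes in 45555, 8.49% in 47298 and 0.854% in 45566B. Cell type markers also differed in these pairs. In 47298, 9 of 10 tested fibroblast markers were lower in knockout, and the sum of 5 adipocyte markers was 15.6 FPKM in knockout and 908 in wild type. In 45555, 9 of 10 fibroblast markers were also lower in knockout. The sum of 6 basal and myoepithelial markers was 1296 FPKM in knockout and 179 in wild type. It was nearly all Acta2, at 1295.5 and 178 FPKM, and the other markers of that list did not exceed 1.09 FPKM in either state. The part of these marker differences in the Ccnd1 difference was not tested. Oraov1 (LTO1 in the annotation), which overlaps Ccnd1 on the opposite strand, was at 5.08 to 18.99 FPKM.

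The lines that were present in 1 state did not place Ccnd1 higher in knockout. Line 46295 knockout held 241 FPKM, below 412 in 33373 and 476 in 33377, both wild type. The panel comparison set the knockout libraries of 45566B and 46295 against the wild-type libraries of 45566B, 33373 and 33377. There Ccnd1 had a log2 fold change of -0.34 ± 0.35 (SE; limma, adjusted p = 0.999), with a 95% interval of -1.24 to 0.56. Knockout and wild-type libraries overlapped. Both comparisons contain the 45566B pair.

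Ccnd2, the cyclin D2 gene, was well expressed in some lines and nearly absent in others. It was at 46.6 FPKM in 45555 knockout and 38.9 in 45555 wild type. In 47298 it was at 5.87 FPKM in the knockout, against 52.0 in the wild-type library, an 8.86-fold lower level in knockout, and the part of the fibroblast and adipocyte markers that were lower there too was not tested. It was nearly undetected in 45566B, at 0.0132 and 0.0175 FPKM in knockout and wild type, and in 46295 knockout at 0.0315. The other wild-type lines held 18.99 FPKM (33373) and 35.3 FPKM (33377). So the libraries with the lowest Ccnd2 were those of 45566B and 46295, which are also high in luminal markers, whereas 33373 had both Ccnd2 and luminal markers. Over the 3 pairs the log2 fold change was -0.90 ± 0.73 (SE; limma, adjusted p = 0.763), carried by 47298 alone, and without that line it was 0.12. In the panel comparison it was -3.14 ± 1.60 (SE; adjusted p = 0.999), where the wild-type library of 45566B was as low as the knockout libraries. The overlapping gene 9330179D12Rik, on the opposite strand, reached at most 0.709 FPKM. The nearest measured protein-coding genes were expressed where Ccnd2 was not: Tigar was at 4.42 and 5.18 FPKM in 45566B knockout and wild type and at 2.83 in 46295, and Parp11 at 2.79 and 11.8 in 45566B knockout and wild type and at 2.17 in 46295.

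Ccnd3, the cyclin D3 gene, was the steadiest of the D cyclins. It was at 46.8 and 34.2 FPKM in 45555 knockout and wild type, 31.6 and 37.7 in 47298, and 23.9 and 24.2 in 45566B. Line 46295 knockout held 39.0 FPKM, and 33373 and 33377 held 34.1 and 39.1. The highest library was 1.96-fold above the lowest, and the states overlapped in every comparison. The log2 fold change over the pairs was 0.06 with a 95% interval of -0.48 to 0.60 (limma, adjusted p = 0.939). Ccnd3 overlaps Bysl on the opposite strand, which reached 20.2 FPKM, and without strand information their shared fragments cannot be told apart.

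The makeup of the D cyclin transcripts differed among libraries. Ccnd1 made up 77.9% of the summed D cyclin FPKM in 45555 knockout and 59.0% in 45555 wild type. It made up 96.1% in 47298 knockout and 64.9% in 47298 wild type, where Ccnd2 held 0.605% and 20.3%. In 45566B the Ccnd1 share was 95.3% in knockout and 94.4% in wild type, in 46295 knockout 86.0%, and in 33373 and 33377 88.6% and 86.5%. The Ccnd1 share was thus lowest in the wild-type libraries of 45555 and 47298. The summed D cyclin level was 970.3 FPKM in 47298 knockout and 256 in 47298 wild type. In 45555 it was 422 FPKM in the knockout, against 178 in the wild-type library. No test was made of these shares.

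**Figure D2:**
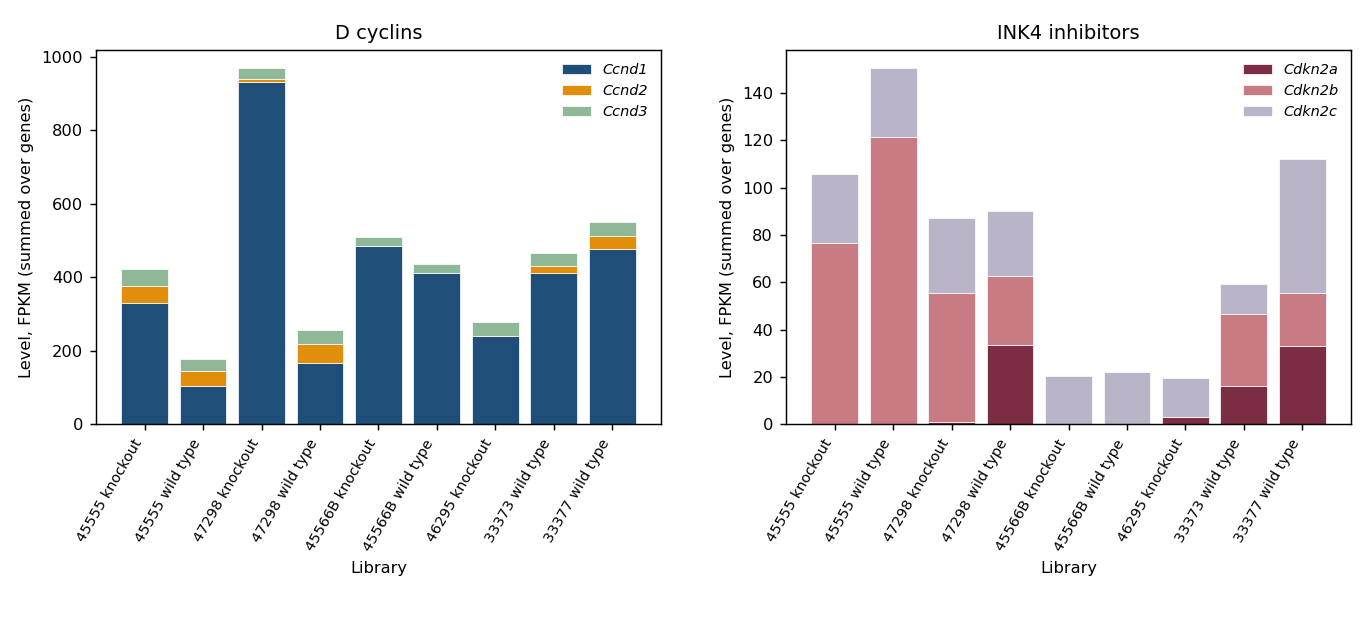
Summed FPKM (bar height) of the 3 D cyclin genes on the left and of 3 INK4 genes on the right in each library. Another INK4 gene, Cdkn2d, is left out. Each gene has a colour, and there are no error bars, since each bar is 1 library. Ccnd1 fills most of each D cyclin bar, and 45566B and 46295 have the lowest INK4 bars, between 19.4 and 22.2 FPKM.

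The catalytic partners were far apart in level. Cdk4 was at 287 and 272 FPKM in 45555 knockout and wild type, 200.04 and 301 in 47298, and 273 and 250.05 in 45566B. It was at 237 FPKM in 46295 knockout, 229 in 33373 and 285 in 33377. Across the 9 libraries it varied by 1.504-fold, the least of the members that were detected in all libraries, and its mean level was 259 ± 32.6 FPKM (SD over the 9 libraries). Its log2 fold change was -0.13 with a 95% interval of -0.76 to 0.50 over the pairs (limma, adjusted p = 0.879) and 0.00 with an interval of -0.56 to 0.57 in the panel comparison (adjusted p = 1). These intervals exclude a change of 1 log2 unit in either direction. Cdk4 overlaps Tspan31 on the opposite strand, which was at 73.2 to 192 FPKM, so part of the Cdk4 signal may be shared.

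Cdk4 lies on chromosome 10 from 127063534 to 127067920 on the plus strand in GRCm38, the build of mm10. The 250 bases before its start are shown because this is the most evenly expressed member and its window is rich in E-boxes (CACGTG), the letters that MYC family factors bind. Letters were searched on both strands in all 32851 RefSeq promoter windows of this length (GRCm38.p6), and matches are a description of letters only. Capitals mark CACGTG, which occurs 4 times in the Cdk4 window and at least once in 6.02% of all windows, and GGGCGG, the GC box, which occurs once there (on the other strand) and in 32.7% of all windows.
Cdk4, chr10:127063285-127063534, plus strand: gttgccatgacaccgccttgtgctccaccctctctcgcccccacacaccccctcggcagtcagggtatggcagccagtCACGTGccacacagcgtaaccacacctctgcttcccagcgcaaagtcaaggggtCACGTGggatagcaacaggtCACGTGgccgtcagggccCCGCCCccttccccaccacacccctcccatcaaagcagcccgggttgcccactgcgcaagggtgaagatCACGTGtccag
Myc, which encodes the best known of these factors, was at 75.8 and 67.6 FPKM in 45555 knockout and wild type, 18.5 and 45.5 in 47298, and 28.6 and 24.4 in 45566B. In 46295 knockout, 33373 and 33377 it was at 21.0, 50.9 and 33.1 FPKM. Across these libraries Myc varied more than Cdk4 did, and a link between them was not tested.

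Cdk6, on chromosome 5, was expressed at a small fraction of Cdk4. It was at 3.76 and 3.40 FPKM in 45555 knockout and wild type, 7.39 and 3.49 in 47298, and 7.06 and 6.62 in 45566B. The single-state lines held 5.00 FPKM (46295 knockout), 8.39 (33373) and 12.8 (33377). Cdk4 exceeded Cdk6 by between 22.2-fold in 33377 and 86.2-fold in 47298 wild type. Cdk6 was higher in knockout in all 3 lines, but only the difference in 47298, 2.12-fold, was large, and the log2 fold change was 0.37 ± 0.25 (SE; limma, adjusted p = 0.762). In the panel comparison it was -0.52 ± 0.36 (SE; adjusted p = 0.999). The ratio of summed D cyclin to summed Cdk4 and Cdk6 FPKM was 4.68 in 47298 knockout and 0.840 in 47298 wild type, 1.45 and 0.648 in 45555, and 1.82 and 1.70 in 45566B.

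The INK4 inhibitors differed widely in how much they varied: the range of the 3 paired lines' means was 6.58 log2 units for Cdkn2b and 3.03 for Cdkn2a, against 0.46 for Cdkn2c, and Ccnd2, at 5.42, lay between Cdkn2b and Cdkn2a. Cdkn2a encodes p16INK4a and, from another first exon in another reading frame, ARF, which restrains MDM2. It was listed at 0 in both libraries of 45555 and both libraries of 45566B. In 47298 it was at 0.930 FPKM in the knockout, against 33.3 in the wild-type library, a 35.9-fold lower level in knockout. The part of the fibroblast and adipocyte markers in this difference was not tested either. Line 46295 knockout held 2.98 FPKM, and the wild-type lines 33373 and 33377 held 16.02 and 33.1. The highest levels were in the wild-type libraries of 47298, 33377 and 33373. A level of 0 was seen in both states, so knockout and wild-type libraries overlapped. Only 1 of the 3 pairs showed a difference, and the log2 fold change of -1.38 (SE 0.99) did not pass (limma, adjusted p = 0.762). In the panel comparison it was -2.06 ± 1.66 (SE; adjusted p = 0.999), and -3.59 without 45566B wild type, -1.07 without 45566B knockout and -1.05 without 33377. FPKM per gene cannot separate p16INK4a from ARF.

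Cdkn2b encodes p15INK4b, an inhibitor induced by TGF-beta in epithelial cells. It was at 76.7 FPKM in 45555 knockout, against 121 in 45555 wild type. In 47298 the order was the opposite, with 54.4 FPKM in the knockout and 29.3 in the wild-type library. It was at 0.0309 FPKM in 45566B knockout and listed at 0 in 45566B wild type and in 46295 knockout, while 33373 and 33377 held 30.7 and 22.5 FPKM. In each of the 3 paired lines both states were alike in having or nearly lacking the transcript. In 46295, present as knockout alone, line and state cannot be told apart. The mean over the pairs was accordingly near 0, at 0.09 on the log2 scale with an SE of 0.34 (limma, adjusted p = 0.945). In the panel comparison the log2 fold change was -3.16 ± 1.60 (SE; adjusted p = 0.999), and 45566B wild type lay with the knockout libraries.

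In the test for differences among the 3 paired lines, allowing for the mean Jak1 difference, Cdkn2b was the single member that passed. Its line means spanned 6.58 log2 units (limma F test, adjusted p = 0.00949). The test called 14% of 12063 genes, so 1 of 10 members is near that background. At an unadjusted p under 0.05 it found 2 of 10 members (Cdkn2b and Ccnd2), against 40.1% of genes. Ccnd2 spanned 5.42 log2 units and missed the threshold (adjusted p = 0.0509), and without 45566B it spanned 1.19 (adjusted p = 0.537). Cdkn2a spanned 3.03 (adjusted p = 0.19) and Ccnd1 1.26 (adjusted p = 0.277). The call of Cdkn2b rests on 45566B: without that line its means differed by 1.25 and the adjusted p was 0.364.

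Cdkn2a and Cdkn2b are neighbours on the minus strand of chromosome 4, from 89274471 to 89294653 and from 89306299 to 89311039, with 11646 bases between them. The 250 bases before 3 start sites are shown to set the separate starts of this locus side by side, the upstream Cdkn2a start that gives ARF, the downstream Cdkn2a start that gives p16INK4a, and the Cdkn2b start. Capitals mark the GC box, the core of E2F sites, written TTCCCGC and found in 3.82% of all windows, and the cyclic AMP response element, written TGACGTCA and found in 1.55% of all windows. The matches do not overlap.
Cdkn2a upstream start, chr4:89294620-89294869, minus strand: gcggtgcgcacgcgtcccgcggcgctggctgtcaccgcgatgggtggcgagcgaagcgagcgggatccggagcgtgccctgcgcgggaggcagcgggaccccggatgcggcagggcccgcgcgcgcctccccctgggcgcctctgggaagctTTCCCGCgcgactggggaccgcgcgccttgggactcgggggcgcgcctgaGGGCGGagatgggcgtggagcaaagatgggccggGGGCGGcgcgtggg
Cdkn2a downstream start, chr4:89282193-89282442, minus strand: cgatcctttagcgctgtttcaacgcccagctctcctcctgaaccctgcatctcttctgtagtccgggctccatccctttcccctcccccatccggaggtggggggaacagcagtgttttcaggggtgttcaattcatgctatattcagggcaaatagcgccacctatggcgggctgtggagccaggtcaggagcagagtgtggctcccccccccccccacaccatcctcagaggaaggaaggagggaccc
Cdkn2b start, chr4:89311033-89311282, minus strand: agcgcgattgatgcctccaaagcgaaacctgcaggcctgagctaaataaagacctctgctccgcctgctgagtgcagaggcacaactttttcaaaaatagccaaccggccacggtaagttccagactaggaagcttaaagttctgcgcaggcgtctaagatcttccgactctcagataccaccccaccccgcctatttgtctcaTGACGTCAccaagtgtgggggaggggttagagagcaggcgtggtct
The upstream Cdkn2a window holds 2 GC boxes and 1 E2F core, the downstream one holds none of these letters, and the Cdkn2b window holds 1 cyclic AMP response element. The upstream Cdkn2a window is 78.4% G and C, against 53.6% in the Cdkn2b window. TTCNNNGAA, the letters of a STAT site, was in none of the 10 member windows searched and is in 7.02% of all windows. The search covered 7 of the 10 genes, with no window for Ccnd1, Ccnd2 or Rb1. So few windows cannot show whether these letters are rarer in the members than in other genes.

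Genes beside the INK4 locus were read in the same libraries. In 45566B the 2 nearest expressed genes on the side of lower coordinates, Mtap and Klhl9, were nearly silent in both states. Mtap, an enzyme of methionine salvage whose gene ends 93390 bases before Cdkn2a, was at 0.0156 and 0.0413 FPKM in 45566B knockout and wild type, and at 20.3 to 86.5 FPKM in the other 7 libraries. Klhl9, an adaptor for a ubiquitin ligase, was at 0.00917 and 0.00606 FPKM in 45566B knockout and wild type and at 9.69 to 27.7 FPKM elsewhere. Further out, Ifnb1, the interferon beta gene, was at 2.73 and 2.06 FPKM in 45566B knockout and wild type and at most 0.722 elsewhere, Hacd4 was at 3.14 and 2.49 in 45566B, and Focad at 2.53 and 1.94. The low stretch in 45566B therefore held Klhl9, Mtap, Cdkn2a and Cdkn2b, and the interferon genes within it were below 1 FPKM in every library. On the other side Dmrta1 was low in most libraries, at 0.00951 FPKM in 45566B knockout, listed at 0 in 45566B wild type and highest in 46295, at 3.00. In 45555, where Cdkn2a was listed at 0, Mtap stood at 86.5 and 62.5 FPKM in knockout and wild type and Cdkn2b was abundant. In 46295, Cdkn2b was listed at 0 beside 20.8 FPKM of Mtap and 2.98 of Cdkn2a. This library had the lowest relative depth (0.416). It also listed at 0 the most genes (6) that held at least 10 FPKM in every other library. Whether such zeros mean that the transcript is absent was not tested. So 3 lines had Cdkn2a, Cdkn2b or both listed at or near 0, each a different combination. The deposited values hold no DNA copy number, and whether the DNA is present was not tested. Klhl9, Ifnb1, Hacd4 and Focad were chosen after their values were seen.

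**Figure D3:**
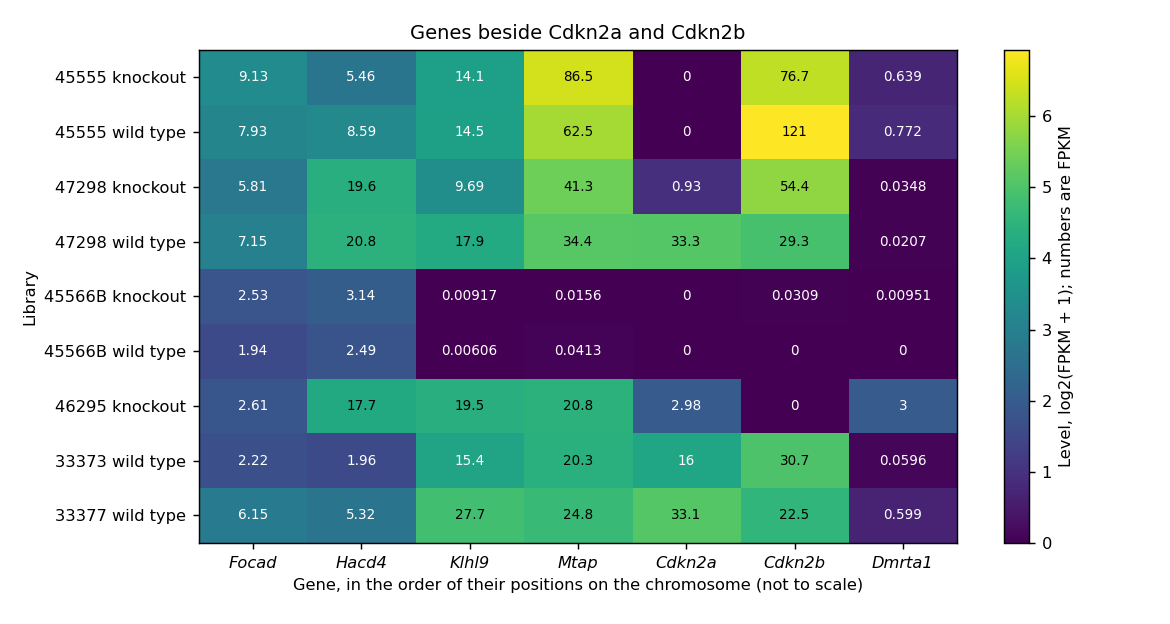
Heat map of the level (colour, log2(FPKM + 1); printed numbers are FPKM) of 7 genes in chromosome order, from Focad to Dmrta1, in the 9 libraries, with interferon genes left out. Both 45566B libraries are at or near 0 from Klhl9 to Dmrta1, 45555 is at 0 for Cdkn2a alone, and 46295 is at 0 for Cdkn2b alone.

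Cdkn2c, which encodes p18INK4c and lies elsewhere on chromosome 4, was expressed in every library. It was at 29.0 and 29.4 FPKM in 45555 knockout and wild type, 31.7 and 27.4 in 47298, and 20.4 and 22.2 in 45566B. Line 46295 knockout held 16.5 FPKM, and 33373 and 33377 held 12.6 and 56.3, the extremes of the set. The states of a line lay close together, with a log2 fold change of 0.02 and a 95% interval of -0.40 to 0.45 over the pairs (limma, adjusted p = 0.969). In 45566B and 46295 Cdkn2c supplied most of the INK4 signal of these 3 genes, with 99.8% and 100% in 45566B knockout and wild type and 84.7% in 46295. In 45555 its share was 27.4% in knockout and 19.5% in wild type, with Cdkn2b at 72.6% and 80.5%. In 47298 wild type the 3 genes had similar shares, with Cdkn2a at 37.0%, against 1.07% in 47298 knockout. These shares leave out Cdkn2d, an INK4 gene that is not a member. Cdkn2d was at 23.2 FPKM in 45566B knockout and in 45566B wild type and at 27.9 in 46295, above Cdkn2c in each.

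Cdkn1b, on chromosome 6, was at 13.3 FPKM in 45555 knockout, against 26.5 in 45555 wild type. It was at 30.3 and 33.3 FPKM in 47298 knockout and wild type and at 20.3 and 20.7 in 45566B. The lines in 1 state held 28.0 FPKM (46295 knockout), 35.3 (33373) and 35.04 (33377). It was lower in knockout in all 3 lines, though the difference in 47298 and 45566B was small, and 45555 knockout was the lowest library of all. The log2 fold change was -0.37 ± 0.24 (SE) over the pairs (limma, adjusted p = 0.762) and -0.30 ± 0.34 (SE) in the panel comparison (adjusted p = 0.999).

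Rb1, the substrate, was at a low level throughout. It was at 3.68 and 4.81 FPKM in 45555 knockout and wild type, 7.65 and 5.47 in 47298, and 5.47 and 4.85 in 45566B. Line 46295 knockout held 5.88 FPKM, and 33373 and 33377 held 8.72 and 16.6, so the wild-type line 33377 stood above the rest. The log2 fold change was 0.08 with a 95% interval of -0.52 to 0.69 over the pairs (limma, adjusted p = 0.922), and -0.58 ± 0.51 (SE) in the panel comparison (adjusted p = 0.999). Lpar6, which lies inside the Rb1 gene on the opposite strand, was at 4.05 to 16.04 FPKM, and Rcbtb2, which overlaps it too, at 4.94 to 21.8.

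**Figure D4:**
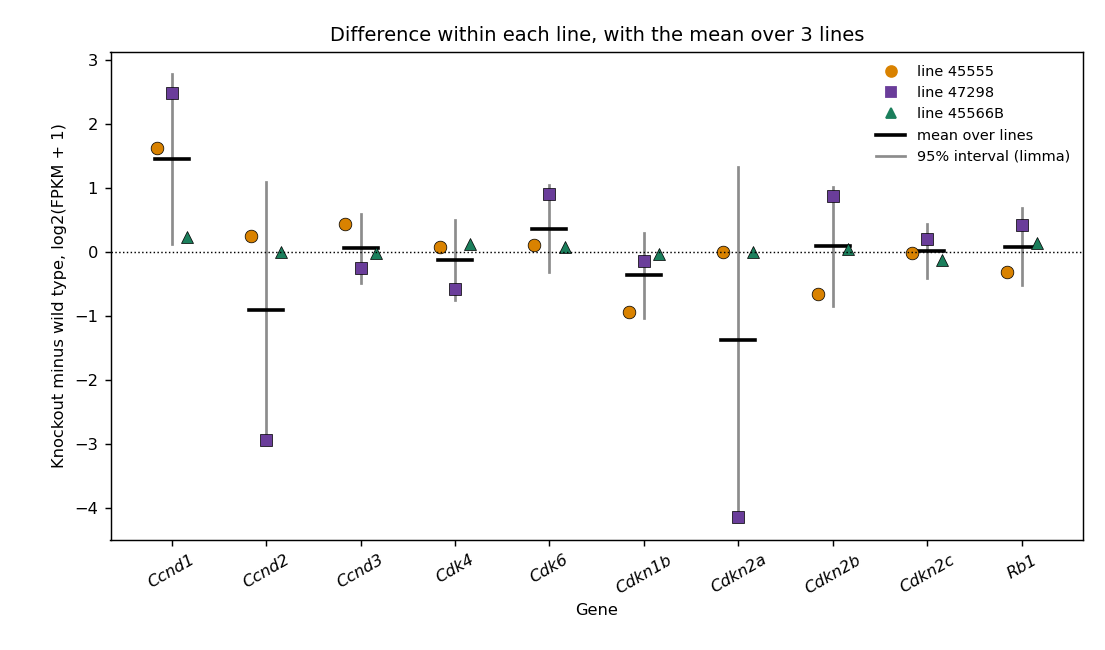
Difference between the knockout and the wild-type library of each line (coloured markers, log2(FPKM + 1)) for the 10 genes, with the mean over the 3 lines as a black bar and its 95% interval from limma as a grey line. Ccnd1 is the one member whose interval (0.12 to 2.78) lies above 0, and the intervals of Ccnd2 and Cdkn2a are wide, with 47298 apart from the other lines.

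The 10 members differed in both directions. Over the pairs 6 were higher and 4 lower in knockout, with a median log2 fold change of 0.04, against -0.01 over all 12063 genes tested. In the panel comparison 1 was higher and 9 lower, with a median of -0.48, against 0.02 over all 11838 genes tested. Of all tested genes 48.6% were higher in knockout over the pairs and 52.3% in the panel comparison. Cell type markers differed there too: 9 of 9 tested fibroblast markers were lower in knockout (median -2.63) and 9 of 9 tested luminal epithelial markers higher (median 1.90), 0 of them called, and their part in the members' differences was not tested. No member passed in either comparison, and none separated the panel groups without overlap. Such a separation was found for 6.43% of tested genes with knockout lower and for 7.67% with knockout higher. At an unadjusted p under 0.05, 3.37% of genes were found over the pairs, 1.86% with a lower level in knockout, and 1.82% in the panel comparison, 0.49% higher and 1.33% lower. Of the members, 1 was among them over the pairs, none with a lower level, and 0 in the panel comparison. Line 45566B differed least between its states, and no member there reached a 2-fold difference on the FPKM + 1 scale. In that line 0.854% of tested genes were at least 2-fold above and 2.17% at least 2-fold below. Ccnd2, Cdkn2a and Cdkn2b were at or near 0 in both of its states. Ccnd1 was the 1 member at least 2-fold above in 45555 and in 47298, where 3.2% and 8.49% of tested genes were. In 47298, 2 members (Ccnd2 and Cdkn2a) were at least 2-fold below, against 11% of tested genes. In 45555 no member was at least 2-fold below, against 6.68% of tested genes.

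The genes downstream were read from lists written from textbook knowledge. Of 18 E2F targets of S phase, 18 were higher in 45555 knockout than in wild type, with a median log2 difference of 1.40 and 16 of them at least 2-fold, and 18 were higher in 47298 knockout, with a median of 0.77 and 3 of them at least 2-fold. Among all tested genes 3.2% were at least 2-fold higher in 45555 knockout and 8.49% in 47298 knockout. In both of these lines 9 of 10 tested fibroblast markers were lower in knockout, and their part in the E2F target difference was not tested. In 45566B 3 of the 18 were higher and 15 lower in knockout, with a median of -0.12. The shares of all tested genes that were higher in knockout were 45.3%, 50.5% and 51.5% in these lines. As with Ccnd1, 45566B differed least, but Ccnd1 differed most in 47298 and these targets in 45555. Those named by the smallest p were Tk1, thymidine kinase (log2 fold change 0.72, SE 0.26), and the helicase subunits Mcm2 (0.92, SE 0.38), Mcm5 (0.95, SE 0.41) and Mcm7 (0.74, SE 0.33). None passed over all genes (limma, adjusted p = 0.762 for each). An unadjusted p under 0.05 (limma) was found for 1 of 18, Tk1, against 3.37% of all tested genes.

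Among 12 genes of the Rb and E2F family 10 were higher and 2 lower over the pairs, where 48.6% of all tested genes were higher. By line, 11 of the 12 were higher in 45555 knockout, 7 in 47298 knockout and 6 in 45566B knockout. An unadjusted p under 0.05 (limma) was found for 0 of the 12, against 3.37% of all tested genes. E2f8, an E2F that represses its targets late in S phase, was at 13.7 and 5.75 FPKM in 45555 knockout and wild type, 5.77 and 1.76 in 47298, and 14.7 and 16.05 in 45566B. Tfdp1, the dimer partner of E2F proteins, stood at a log2 fold change of 0.44 (SE 0.22), E2f1 of 0.41 (SE 0.24) and Rbl2, the pocket protein p130, of -0.33 (SE 0.22). Among 14 genes of the cyclin E, cyclin A and CDK2 step 9 were higher and 5 lower over the pairs, against 48.6% higher among all tested genes. By line, 10 of the 14 were higher in 45555 knockout, 8 in 47298 knockout and 6 in 45566B knockout. Of all tested genes 45.3%, 50.5% and 51.5% were higher in knockout in these lines. Ccna2, cyclin A2, was at 107 and 42.5 FPKM in 45555 knockout and wild type, 26.8 and 16.8 in 47298, and 96.3 and 77.8 in 45566B. Like Ccnd1, it was higher in knockout in all 3 lines, a pattern found for 3 of the 14 genes and for 14.3% of all tested genes. Its log2 fold change was 0.75 (SE 0.25, limma unadjusted p = 0.0378, adjusted p = 0.762). It was the 1 gene of the 14 with an unadjusted p under 0.05 (limma), against 3.37% of all tested genes. Ccne1, cyclin E1, stood at a log2 fold change of 0.66 (SE 0.35), Cks1b, a CDK-binding subunit, of 0.38 (SE 0.21), and Cdkn1c, which encodes p57, of -1.11 (SE 0.64).

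Genes that feed into D cyclin transcription or turnover were split, with 7 of 14 higher and 7 lower over the pairs. Of all tested genes 48.6% were higher. An unadjusted p under 0.05 (limma) was found for 0 of the 14, against 3.37% of all tested genes. Stat3, a transcription factor activated by JAK1, was at 19.0 and 66.5 FPKM in 45555 knockout and wild type, 46.0 and 92.3 in 47298, and 45.7 and 46.4 in 45566B. It was lower in knockout in 45555 and 47298 and nearly equal in 45566B. Erbb2 was at 9.47 and 7.84 FPKM in 45555 knockout and wild type and at 264 and 335 in 45566B. In 47298 it was at 243 FPKM in the knockout, against 37.6 in the wild-type library, the largest difference in this list. Whether fragments of the neu transgene were counted for Erbb2 is not known. The log2 fold changes of Egfr and Stat5a were -0.66 (SE 0.27) and 0.29 (SE 0.27), and the adjusted p of these 4 genes lay between 0.762 and 0.781 (limma).

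**Figure D5:**
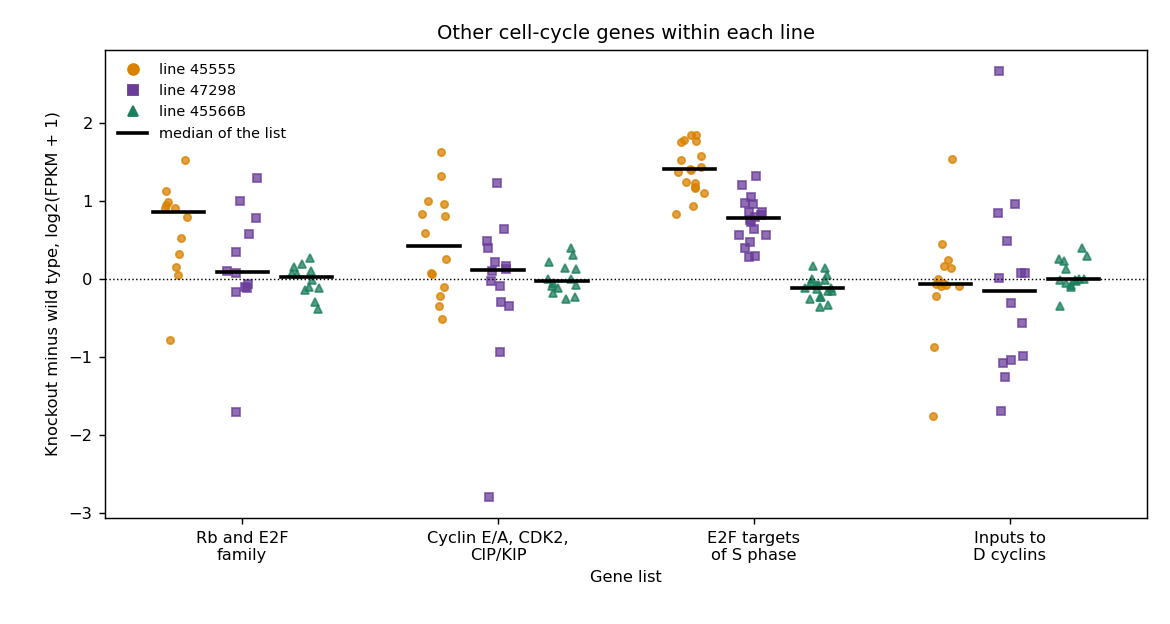
Knockout minus wild type (log2(FPKM + 1)) for each tested gene of 4 lists, by line (colour and marker), with the list median as a black bar. All 18 E2F targets lie above 0 in 45555 and 47298, and their median is -0.12 in 45566B.

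Genes with the most similar pattern over the 9 libraries were found by Pearson correlation of log2(FPKM + 1) among 11275 other named genes, as a description in which libraries of 1 line are not independent. For Ccnd1 these were Lrrc8d (r = 0.925), a subunit of volume-regulated anion channels, and Ttll4 (r = 0.921), a glutamylase. Lrrc8d was at 11.9 and 7.78 FPKM in 45555 knockout and wild type, 42.97 and 11.2 in 47298, and 31.6 and 30.9 in 45566B. For Ccnd2 they were Loxl4 (r = 0.979), a lysyl oxidase that crosslinks collagen, and B4galt2 (r = 0.976), and for Cdkn2b Bcl2l2 (r = 0.983) and Zfp251 (r = 0.979). Zfp251 was listed at 0 in 45566B knockout and in 46295 and was at 0.00737 FPKM in 45566B wild type. For Cdkn2a they were Rasa2 (r = 0.953) and Cxcl12 (r = 0.952), a chemokine of stromal cells that was at 6.91 FPKM in 47298 knockout and 231 in 47298 wild type. For Ccnd3 they were Lrrc20 (r = 0.962) and Pxdc1 (r = 0.948), for Cdk4 Nt5dc2 (r = 0.970) and Fip1l1 (r = 0.945), and for Cdk6 Fem1a (r = 0.948) and Tlr5 (r = 0.944), a receptor for flagellin. For Cdkn1b they were Pnrc1 (r = 0.970) and Coro1b (r = 0.964), for Cdkn2c Ndufa10 (r = 0.904) and Ephx2 (r = 0.899), and for Rb1 Notum (r = 0.959), an enzyme that inactivates WNT proteins, and Dbnl (r = 0.954).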

How the data were processed

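FPKM of 9 libraries were used as the authors deposited them, 1 value per gene symbol. The submitters' processing notes name cutadapt, TopHat2 2.1, Cufflinks 2.2, Cuffnorm and build mm10, without order or role. No source used here states strand, annotation or library scaling. A smaller table repeats 4 of the libraries with identical values. In all, 4 rows with repeated names were left out. Relative depth was the most frequent ratio, to 45566B wild type, of values under 0.5 FPKM.

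FPKM hold no counts, so log2(FPKM + 1) was tested with limma 3.58.1 in R 4.3.3 (variance trend, two-sided, Benjamini-Hochberg threshold of 0.05 over all genes averaging 1 FPKM or more). Fold changes on this scale understate those of low genes. In the pairs comparison line was a block: both libraries of a line deviated in common (correlation 0.700 in 45555, 0.399 in 47298, 0.804 in 45566B), and the labels name the line that they share. The line test had genotype as covariate. All 3 tests were checked on simulated data. Alternatives were another pseudocount, no filter, other scalings, no trend, no block and leaving out lines or libraries. Positions came from GENCODE vM21 and promoters from RefSeq (GRCm38.p6).

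The members, lists and tests were chosen with earlier results of these data known. The text names all members, Jak1, the 4 genes of each pathway list with the smallest p over the pairs, most similar genes and neighbours. Myc, Cd68, Epcam, Krt8, Krt18, Acta2, Ptprc, Oraov1, Rcbtb2, Bysl, Tspan31, Lpar6, Cdkn2d and 9330179D12Rik were named besides.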

Additional observations from a re-analysis of the deposited data

Results flagged for a closer look

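Within the 5 wild-type libraries, Ccnd2 in 45566B (0.0175 FPKM) lay far below the others. Ccnd3 in 45566B (24.2 FPKM, next lowest 34.1 FPKM) also stood apart on the log2 scale, by a gap that was small in fold but large against the narrow range of the group. Groups of 4 or 5 libraries were examined for all 10 members, and chance marks about 1 group in 20.

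Cdkn2b differed in opposite directions between lines, with a knockout minus wild type difference of -0.65 log2 units in 45555 and 0.87 in 47298. Each line has 1 library in each state, so the difference between the lines was not tested.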

How the results depend on the processing

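No member passed in the pairs comparison under any of 9 alternatives or in the panel comparison under any of 11. Calls over all genes were 0 in the pairs comparison with and without the line as a replicate block (no replicate block: 0 calls, with a Ccnd1 log2 fold change of 1.45 and an adjusted p of 1), and the smallest adjusted p with it was 0.762. Leaving out a line gave 0 to 6 calls, the 6 without 47298. In the panel comparison leaving out a library gave 0 calls and a pseudocount of 0.1 gave 4. The line test called 1694 genes, and 0 to 3515 with a line left out (276 without 45555, 3515 without 47298, 0 without 45566B). Without short noncoding RNA genes and with rescaled libraries, the median of all genes over the pairs shifted by 0.17 log2 units and the share of genes higher in knockout was 69.2%, against 48.6%. There Cdk4 was at 0.073, below that median, and Ccnd1 stood 1.49 above it, against 1.46 with libraries shifted to a shared median. Ccnd2 passed the line test with a pseudocount of 0.1 (8.53 log2 units, adjusted p = 0.0189), after that rescaling (5.34, adjusted p = 0.0258) and without 47298 (adjusted p = 0.00174), but not without a filter (adjusted p = 0.091), without 45555 (4.23, adjusted p = 0.108) or without 45566B (1.19, adjusted p = 0.537).

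Signs of small differences depended on single lines. With a line left out, the log2 fold change over the pairs ranged from -0.13 to 0.21 for Ccnd3, -1.48 to 0.12 for Ccnd2, -0.25 to 0.10 for Cdk4, -0.31 to 0.46 for Cdkn2b, -0.069 to 0.092 for Cdkn2c and -0.085 to 0.28 for Rb1. With a panel library left out it ranged from -0.40 to 0.28 for Ccnd3, -0.10 to 0.11 for Cdk4, -0.84 to 0.17 for Ccnd1 and -0.92 to 0.12 for Cdkn2c. Values that kept their sign moved as well: over the pairs 0.097 to 0.51 for Cdk6 (lowest without 47298) and -0.54 to -0.081 for Cdkn1b (nearest 0 without 45555), and in the panel comparison -4.72 to -2.14 for Ccnd2, -4.75 to -2.26 for Cdkn2b, -0.73 to -0.28 for Cdk6, -0.54 to -0.074 for Cdkn1b and -0.97 to -0.18 for Rb1. Without both 33373 and 33377 it was 0.32 for Ccnd3, 0.19 for Cdkn1b and 0.19 for Rb1. The cause was not tested. Cdkn2a could not be tested without 47298, nor 3 members (Ccnd2, Cdkn2a and Cdkn2b) without both 33373 and 33377, since they fell under the filter. A block in the panel comparison was not fitted, since 1 line alone is shared.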
